A study of Mus musculus with 14 samples.

Results

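The heat shock proteins described here were 10 genes of the 33939 in the deposited table, found by their listed symbols. They were the small heat shock proteins Hspb3 and Hspb1, the HSP70 proteins Hspa1a, Hspa1b and Hspa8, the HSP110 protein Hsph1, the HSP40 protein Dnajb1, the HSP90 proteins Hsp90aa1 and Hsp90ab1, and the mitochondrial HSP10 protein Hspe1. Hspb3 was selected from its difference between the genotypes in these same libraries, so that difference is described below without a test. The other 9 were listed as the classical heat shock genes, with earlier results of these data known. All 10 symbols were found, and the 9 others passed the filter on low values in every comparison, whereas Hspb3 did not pass it between the hemispheres of control mice.

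RNA was sequenced from CD11b+ microglia and myeloid cells, isolated on magnetic columns from each brain hemisphere of C57BL/6 mice aged 8 to 12 weeks, 3 days after a traumatic brain injury (TBI) made by controlled cortical impact. Control mice (Ctrl) carried Cx3cr1-CreER+/- and the knockout mice (cKO) Cx3cr1-CreER+/-;Nhe1flox/flox, and both genotypes received tamoxifen, so the CreER allele and the drug were shared by all groups. The injured hemisphere is called IL and the opposite, non-lesion hemisphere CL, which came from the same injured brains and not from uninjured mice. Each hemisphere gave 4 libraries in Ctrl and 3 in cKO, 14 in all, from 8 mice, 6 of which gave both hemispheres. Cx3cr1 drives the recombinase in microglia and also in other myeloid cells. The paper describes a waiting period between tamoxifen and injury, meant to let peripheral Cx3cr1+ monocytes be replaced. The CD11b gate does not part microglia from infiltrating myeloid cells, and which of them had lost Nhe1 was not tested. In such bulk libraries, fewer cells of a type and less RNA per cell cannot be told apart.

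Heat shock proteins are chaperones that bind unfolded or partly folded proteins. HSP70 works in cycles of ATP hydrolysis that HSP40 proteins start and HSP110 proteins reset, HSP90 completes the folding of kinases and receptors, and small heat shock proteins hold clients without ATP. Under heat, oxidative or proteotoxic stress the factor HSF1 binds heat shock elements, which are repeats of the letters NGAAN in alternating orientation, and induces Hspa1a, Hspa1b, Dnajb1, Hspb1 and Hsp90aa1, whereas Hspa8 and Hsp90ab1 are made in most cells without stress. Hspb3 is an unusual member, known mainly from skeletal and cardiac muscle. The same inducible genes are also known to respond to the enzymatic and mechanical handling by which brain cells are brought into suspension.

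The libraries held between 12.2 and 41.6 M reads (M, 1000000), as worked out from the value of 1 read, with a median of 34.2 M. The 6 microglia markers summed to between 22309 and 29556 CPM (counts per 1000000 reads assigned to genes) in CL and between 12870 and 14135 CPM in IL. In each genotype limma called 5 of the 6 lower in IL (adjusted p of at most 0.05, fold change of at least 1.2). Of all genes, 2.96% were called lower in Ctrl and 9.52% in cKO. The shallowest library, Ctrl IL of mouse 3546, stood apart: its 259 short protein-coding genes (exons of up to 1000 bases) had a median of 0.211 times the mean of the other Ctrl IL libraries, against ratios of 0.735 to 1.42 in the other 13 libraries. Hspb3, with 781 bases of exon, belongs to this short class. Hspb1 and Hspe1 have more exon bases (1031 and 1474) but short transcripts of 930 and 774 bases. Values of these 2 that rest on that library are given below with and without it.

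Hspb3 was close to silent in control cells and readily measured in knockout cells. In Ctrl CL it reached 0.192, 0.1003, 0.106 and 0.187 CPM in mice 3541, 3545, 3546 and 3551. In Ctrl IL it was 0, 0.0569, 0 and 0.117 CPM in the same mice. These are between 0 and 8 reads per library, and the libraries at 0 allow levels of up to 0.0853 and 0.245 CPM, the worth of 3 reads. The floor of 0.245 CPM is that of mouse 3546, whose Ctrl IL library was low in short genes, and it does not allow for that. In cKO CL it was 26.1 CPM in mouse 788, 19.1 in mouse 791 and 24.6 in mouse 3592. In cKO IL it was 12.9 CPM in mouse 784, 11.9 in mouse 791 and 10.7 in mouse 3592. Every cKO library lay far above every Ctrl library, and every cKO CL library lay above every cKO IL library.

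The genotype difference is given as the description that brought Hspb3 into the list. Summed over libraries, 2101 reads of 89.4 M in cKO CL stood against 18 of 125.9 M in Ctrl CL, a ratio of 164 with an exact 95% interval of 104 to 278. In IL, 1216 reads of 102 M stood against 6 of 117 M, a ratio of 231 with an interval of 106 to 631. Both intervals cover counting error only, and the IL ratio includes the Ctrl IL library of mouse 3546, which was low in short genes. On the log2(CPM + 1) scale, which understates the change of a gene near 0, the differences were 4.39 ± 0.21 (SE) in CL and 3.63 ± 0.16 in IL.

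The difference between hemispheres within cKO mice was not part of that choice. Hspb3 fell in cKO IL relative to cKO CL by 0.83 ± 0.17 on the log2 scale (adjusted p = 0.0117). Mouse 791 had 1.61 times and mouse 3592 had 2.29 times as much Hspb3 in CL as in IL, and the other 2 cKO libraries came from different mice. With the mouse as a block the fall was 0.78 ± 0.22 (adjusted p = 0.0495), and the call held in 6 of 6 fits that each left out 1 library. In Ctrl mice Hspb3 was too low to be tested between hemispheres.

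Hspb3 is a gene of 1 exon on the minus strand of chr13:113662896-113663676 (GRCm38, the build named mm10 by the submitters), 781 bases long. No other gene of the table matched its transcript in a search with blastn, so its reads had no near copy to be shared with. Its promoter is shown because the gene is near 0 in 1 genotype and readily measured in the other. The 250 bases before its RefSeq start (chr13:113663677-113663926, minus strand, GRCm38.p6) are printed 5′ to 3′, with 2 facing NGAAN units of the heat shock element (TTCNNGAA or GAANNTTC) in capitals:
Hspb3: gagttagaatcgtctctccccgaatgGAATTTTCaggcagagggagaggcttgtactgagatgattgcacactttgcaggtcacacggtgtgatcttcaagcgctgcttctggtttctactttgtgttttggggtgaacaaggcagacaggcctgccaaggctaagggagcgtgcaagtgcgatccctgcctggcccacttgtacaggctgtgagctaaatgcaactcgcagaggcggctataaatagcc
The stretch held 1 match, 224 bases before the start. A match of this kind stood in 12.8% of the 32851 RefSeq promoter stretches of the same length, and is a description of letters only.

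The genes around Hspb3 did not share its pattern. In the table, 28 genes have their lowest coordinate within 1 Mb of that of Hspb3. Of these, 11 could be tested between the genotypes in CL and 10 in IL. None of them was called by limma, beside 0.873% of all genes in CL and 0.662% in IL. Their log2 fold changes lay between -0.94 and 0.44 in CL and between -0.28 and 0.66 in IL. By these lowest coordinates Snx18, a sorting nexin gene, lies 70.7 kb away, and it gave 0.32 ± 0.19 in CL and 0.16 ± 0.14 in IL. Arl15, a small GTPase gene 132 kb away on the other side by the same measure, gave 0.34 ± 0.18 in CL and -0.24 ± 0.15 in IL. Between hemispheres, limma called the granzyme gene Gzma (-1.20 ± 0.29) and Arl15 (0.68 ± 0.18) in Ctrl and the complex I subunit gene Ndufs4 (0.41 ± 0.11) in cKO. Of all genes, 6.56% were called in Ctrl and 22.4% in cKO. The remaining tested neighbours were Plpp1, Mtrex, Dhx29, Ccno, Gpx8, BC067074, Gm47558 and Fst.

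**Figure D1:**
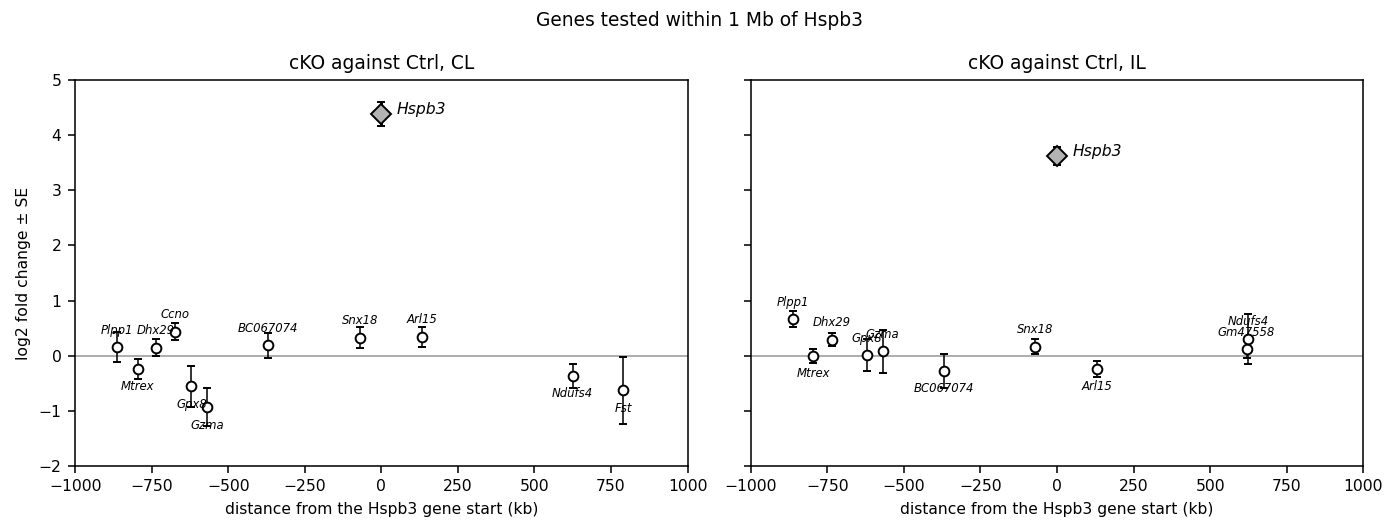
Log2 fold change of cKO against Ctrl (y axis, log2(CPM + 1) scale, bars ± SE) for Hspb3 (grey diamond, no test) and the tested genes within 1 Mb of it, in CL (left) and IL (right). The x axis, labelled as distance from the gene start, gives the distance in kb between the lowest coordinates of each gene and of Hspb3. Hspb3 sits at 4.39 and 3.63, and the neighbours lie between -0.94 and 0.66.

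The 5 genes whose levels followed Hspb3 most closely over the 14 libraries (Pearson r on the scaled log2(CPM + 1) values, out of 18475 genes) were Hist1h2al (0.997), Wdfy1 (0.986), Gm42743 (0.984), Sycp1 (0.976) and Gnb4 (0.969). Such r values mostly restate the split into 2 genotypes that all 14 points share, and carry no test. Hist1h2al, annotated as a processed pseudogene on the same chromosome but outside that 1 Mb window, had means of 0.109 CPM in Ctrl CL, 0 in Ctrl IL, 15.2 in cKO CL and 8.47 in cKO IL. None of the other heat shock genes came near, with r between -0.66 for Hspa1b and -0.05 for Hspe1.

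Other small heat shock proteins did not show the Hspb3 pattern either. Hspb6, which regulates smooth muscle tone, had means of 5.51, 4.87, 4.60 and 5.30 CPM in CL and IL of Ctrl and then in CL and IL of cKO. Cryab, the alpha-B crystallin, had means of 11.1, 6.77, 6.38 and 6.08 CPM in the same order. Hspb8, a partner of the BAG3 autophagy complex, had means of 4.22, 4.08, 2.002 and 3.43 CPM. Hspb2 and Hspb7 stayed below 1 CPM on average in every group, Hspb9 and Cryaa averaged at most 0.129 CPM, and limma called none of those tested in any comparison. The muscle markers, which bear on a gene known from muscle, summed to between 1.94 and 23.8 CPM in Ctrl libraries and between 2.76 and 5.01 CPM in cKO libraries, and none of those tested was called in any comparison. The muscle regulator Myod1 was at 0 in 11 of 14 libraries and reached at most 0.0353 CPM in Ctrl CL and 0.0523 CPM in cKO IL. The highest level of any of the 7 muscle markers in the table was that of Acta1, 19.3 CPM in a Ctrl CL library, against at most 0.465 CPM in cKO libraries.

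Among the 9 other heat shock genes, the control non-lesion hemisphere had the highest average of the 4 groups for all 9. Between IL and CL of Ctrl mice, all 9 had log2 fold changes below 0, with a median of -0.96 against -0.04 over all 16376 genes tested. None of the 9 was called by limma at an adjusted p of at most 0.05 and a fold change of at least 1.2, where 6.56% of all genes were called, and 5 of them had an unadjusted p under 0.05, as did 3461 of all 16376 genes (21.1%). Once the mouse was entered as a block, 6 of the 9 were called and all 6 were lower in IL, where 20.5% of all genes were called in either direction and 10.7% of all genes were called lower. The 6 were Hspa1a, Hspa1b, Hspa8, Dnajb1, Hsp90aa1 and Hspb1. The blocked fit uses the spread between mice of the difference, and in each of the 4 Ctrl mice all 9 genes were lower in IL except Hsph1 in mouse 3546. After scaling, none of the 9 was free of overlap between hemispheres, against 8.52% of all genes that were lower without overlap. On the deposited CPM every Ctrl IL library lay below every Ctrl CL library for Hspa1a, Hspa1b, Hspa8, Dnajb1, Hsp90aa1 and Hspb1. The share of all genes on that scale was not worked out. Without library-size scaling beyond CPM, 2 of the 9 were called, and the split of all called genes turned from 590 higher and 484 lower to 625 higher and 814 lower.

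Between IL and CL of cKO mice, 5 of the 10 genes were called, where 22.4% of all 16758 genes were. Hspa1b, Hspa1a, Hspb3 and Dnajb1 fell and Hspe1 rose, against 9.52% of all genes called lower and 12.8% called higher. The median of the 9 others was -0.05, against 0.02 over all genes tested. Leaving out 1 library moved it to between -0.19 without cKO CL of mouse 3592 and 0.025 without cKO CL of mouse 788, against 0.02 over all genes in each. With the mouse as a block, which rests on mice 791 and 3592 alone for the difference, Hspa1b, Hspa1a and Hspb3 stayed called lower, Hsph1 was called higher, and Dnajb1 and Hspe1 were not called, where 13.5% of all genes were called, 4.81% lower and 8.69% higher. After scaling, 4 of the 9 others were lower and 2 higher without overlap between hemispheres, against 19.6% and 22.3% of all genes. Without cKO IL of mouse 784, of mouse 791 or of mouse 3592, 1 of the 10 was called, namely Hspb3, where 10.9%, 11.1% and 13.8% of all genes were called. Without cKO CL of mouse 788 there were 2, Hspb3 and Hsph1, where 14.3% were.

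Between genotypes, none of the 9 was called in CL, where 0.873% of all 16603 genes were, or in IL, where 0.662% of 16919 were. At an unadjusted p under 0.05 there were 5 of the 9 in CL, where 9.81% of all genes had such a p, and 2 in IL, where 8.91% did. All 9 had log2 fold changes below 0 in CL, with a median of -0.90 against -0.05 over all genes, and in IL the median was -0.06 against 0.01. Leaving out 1 library moved the median in IL to between -0.43 without Ctrl IL of mouse 3546, where it was -0.02 over all genes, and 0.07 without Ctrl IL of mouse 3541. After scaling, ranges did not overlap, with cKO lower, for Hspa1a, Hspa1b and Hspa8 in CL and for Hspa1a and Hspa1b in IL, against 4.69% and 4.75% of all genes lower without overlap. When the 14 libraries were fitted jointly, each mouse being a random block, Hspa1a and Hspa1b were called in CL and Hspa1b in IL, where 1.57% and 1.03% of all genes were called. The comparisons in CL and between hemispheres share the same Ctrl CL libraries, so they are not independent of each other.

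**Figure D2:**
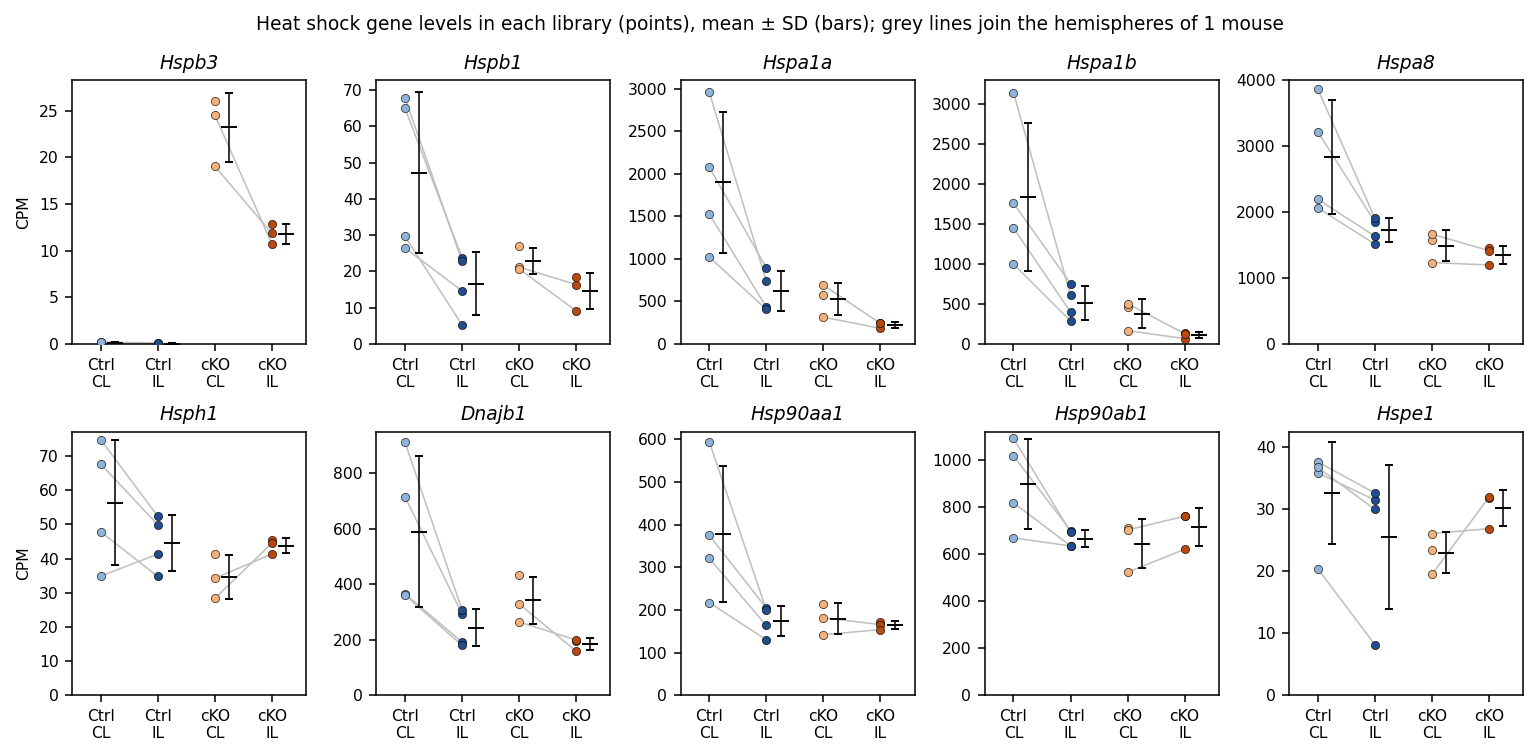
CPM (y axis, from 0) of each of the 10 heat shock genes in each library (points) of the 4 groups (x axis), with the mean ± SD of each group and grey lines between the 2 hemispheres of a mouse. Hspb3 is near 0 in Ctrl and between 10.7 and 26.1 CPM in cKO, and for the other 9 genes the highest library is a Ctrl CL library.

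**Figure D3:**
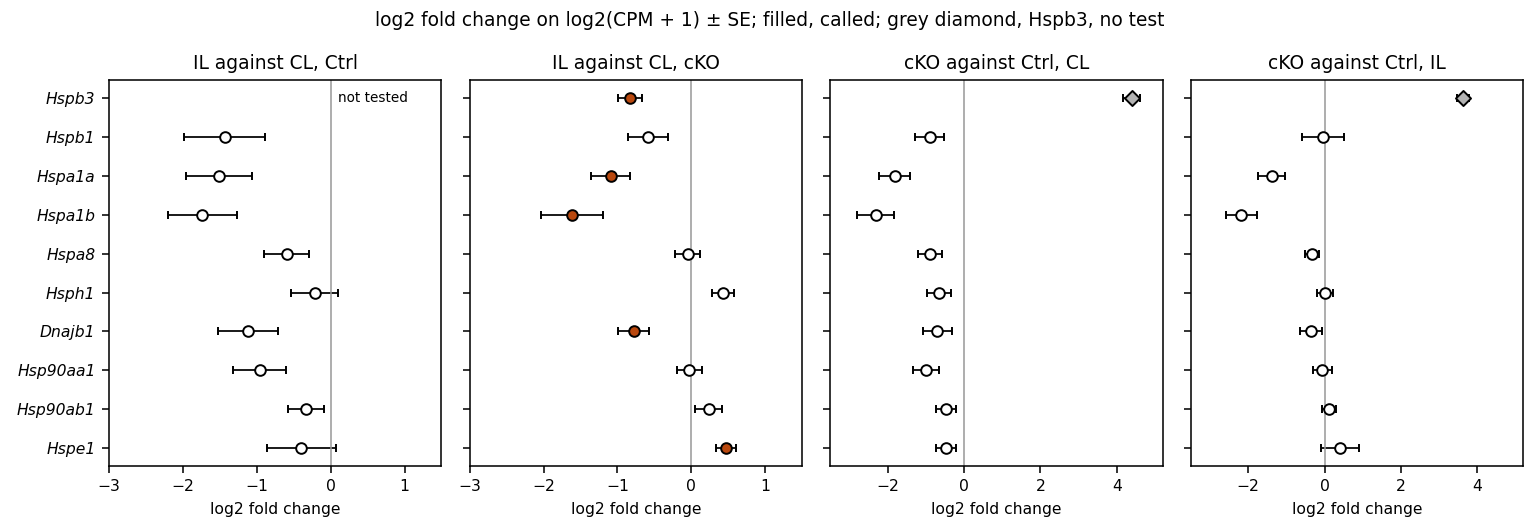
Log2 fold changes (x axis, log2(CPM + 1) scale, bars ± SE) of the 10 genes (rows) in the 4 comparisons, with filled points for those called by limma without a block. Called points are seen only between hemispheres of cKO mice, where Hspb3, Hspa1a, Hspa1b and Dnajb1 lie left of 0 and Hspe1 right of it, and the grey diamonds mark the Hspb3 genotype difference, which was not tested.

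The stress-inducible HSP70 pair Hspa1a and Hspa1b had the widest range of the 9. In Ctrl CL, Hspa1a was 2080, 2960, 1527 and 1022 CPM in mice 3541, 3545, 3546 and 3551. In Ctrl IL it was 897, 741, 436 and 407 CPM in the same mice. In cKO CL it was 581 CPM in mouse 788, 316 in mouse 791 and 690 in mouse 3592, and in cKO IL 245 CPM in mouse 784, 183 in mouse 791 and 242 in mouse 3592. The Ctrl CL libraries were the highest, cKO IL the lowest, and Ctrl IL and cKO CL overlapped between them.

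Hspa1b followed the same order with a wider span. It was 1765, 3149, 1455 and 1000 CPM in Ctrl CL and 757, 608, 398 and 289 CPM in Ctrl IL, in the order of mice above. It was 466, 166 and 505 CPM in cKO CL and 131, 66.9 and 128 CPM in cKO IL. From the highest to the lowest library this was a range of 47.1-fold for Hspa1b and 16.1-fold for Hspa1a.

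In Ctrl mice the log2 fold change of IL against CL was -1.74 ± 0.46 for Hspa1b (adjusted p = 0.0540) and -1.51 ± 0.44 for Hspa1a (adjusted p = 0.0753). With the mouse as a block the SE dropped to 0.18 and 0.16 and both passed (adjusted p = 0.00112 for each). CL exceeded IL in all 4 Ctrl mice, by 2.33 to 5.18 times for Hspa1b and by 2.32 to 3.996 times for Hspa1a. In cKO mice both fell in IL, Hspa1b by 1.61 ± 0.42 (adjusted p = 0.0282) and Hspa1a by 1.09 ± 0.27 (adjusted p = 0.0224).

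Between genotypes, Hspa1b differed by -2.32 ± 0.47 in CL (adjusted p = 0.0527) and by -2.18 ± 0.40 in IL (adjusted p = 0.0702). Hspa1a differed by -1.82 ± 0.41 in CL (adjusted p = 0.0828) and by -1.39 ± 0.35 in IL (adjusted p = 0.185). None of these passed, and leaving out a single library moved each of them across the threshold. Without Ctrl IL of mouse 3546, the shallowest library, both were called in IL (adjusted p = 0.0149 for Hspa1b and 0.0275 for Hspa1a), and 284 genes were called in place of 112. Without Ctrl CL of mouse 3551, both were called in CL (adjusted p = 0.0372 and 0.0344) and also between the Ctrl hemispheres (adjusted p = 0.0386 and 0.0444). Over all fits that left out 1 library, the adjusted p of Hspa1b ranged from 0.0372 to 0.225 in CL and from 0.0149 to 0.309 in IL, and that of Hspa1a from 0.0344 to 0.392 in CL and from 0.0275 to 0.633 in IL.

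The pair must be read with its sequence in view, because the genes are nearly the same. Over 2201 aligned bases the Hspa1a and Hspa1b transcripts were 99.2% identical, and how the authors' counting split reads that fit both was not given in the sources used here. Both are genes of 1 exon on the minus strand of chromosome 17, Hspa1a at chr17:34969190-34972156 and Hspa1b at chr17:34956436-34959238. Their promoters are shown because the genes moved together, each as the 250 bases before the RefSeq start, with the heat shock element pair of units in capitals (chr17:34972157-34972406 and chr17:34959239-34959488, minus strand, GRCm38.p6):
Hspa1a: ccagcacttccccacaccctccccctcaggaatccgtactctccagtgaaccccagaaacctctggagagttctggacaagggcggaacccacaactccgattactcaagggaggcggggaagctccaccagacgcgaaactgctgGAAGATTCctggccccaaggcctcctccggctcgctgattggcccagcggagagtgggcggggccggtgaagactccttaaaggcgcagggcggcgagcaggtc
Hspa1b: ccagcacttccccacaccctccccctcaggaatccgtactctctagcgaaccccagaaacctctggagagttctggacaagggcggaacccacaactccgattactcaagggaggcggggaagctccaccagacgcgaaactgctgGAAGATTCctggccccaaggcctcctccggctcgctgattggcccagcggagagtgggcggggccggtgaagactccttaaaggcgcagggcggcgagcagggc
The stretches were identical at 247 of 250 positions (98.8%), and each had its match 104 bases before the start.

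The sum of the pair does not depend on how shared reads were divided between them. It averaged 3740 ± 1746 CPM (SD, n = 4) in Ctrl CL, 1133 ± 446 (n = 4) in Ctrl IL, 908 ± 377 (n = 3) in cKO CL and 332 ± 71.2 (n = 3) in cKO IL. The ranges of the sum did not overlap between the genotypes in either hemisphere. The ratio of Hspa1b to Hspa1a was not constant: its median was 0.966 in Ctrl CL, 0.833 in Ctrl IL, 0.732 in cKO CL and 0.530 in cKO IL. It was lowest, 0.365, in cKO IL of mouse 791, the library with the smallest sum, and highest, 1.06, in Ctrl CL of mouse 3545, the library with the largest.

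**Figure D4:**
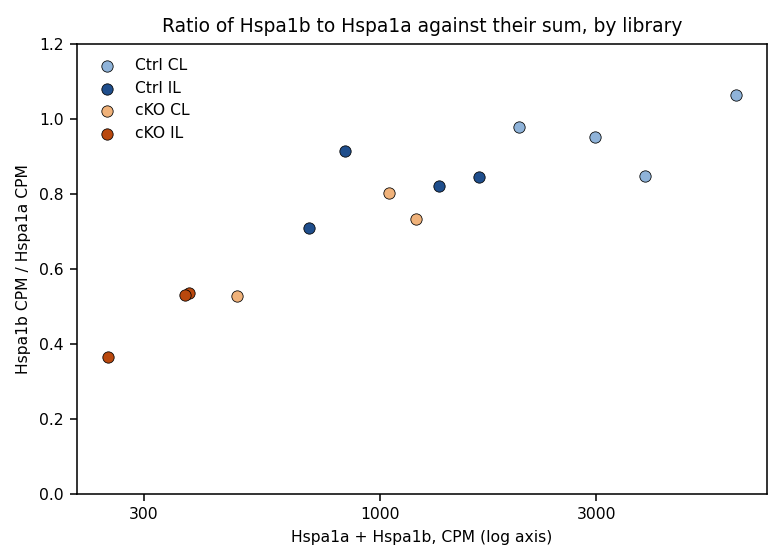
Ratio of Hspa1b to Hspa1a CPM (y axis, from 0) against their summed CPM (x axis, log scale) in each of the 14 libraries, coloured by group. The ratio runs from 0.365 in the cKO IL library of the smallest sum to 1.06 in the Ctrl CL library of the largest.

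Hspa8, the constitutive HSP70 of the cytosol, was the most abundant of the 10 per kb of exon in every group. It was 3220, 3867, 2195 and 2063 CPM in Ctrl CL and 1852, 1908, 1636 and 1515 CPM in Ctrl IL of mice 3541, 3545, 3546 and 3551. In cKO it was 1580, 1234 and 1665 CPM in CL of mice 788, 791 and 3592 and 1452, 1198 and 1416 CPM in IL of mice 784, 791 and 3592. The deposited CPM of the Ctrl hemispheres did not overlap and those of the cKO hemispheres did. IL against CL gave -0.60 ± 0.30 in Ctrl (adjusted p = 0.297, and 0.0186 with the mouse as a block) and -0.05 ± 0.17 in cKO (adjusted p = 0.866). Between genotypes it gave -0.90 ± 0.32 in CL (adjusted p = 0.343). A copy of its sequence listed as Gm15459, 99.7% identical over 1941 bases, held between 864 and 2642 CPM of its own. With its 3 copies of at least 97% identity added, Hspa8 ranged from 3665 to 6725 CPM in Ctrl CL and from 2177 to 3925 CPM in cKO CL, so that the genotypes overlapped in the sum.

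Hsph1, the HSP110 exchange factor of HSP70, was the least abundant per kb in the cKO groups. It averaged 56.3 ± 18.3 CPM (SD, n = 4) in Ctrl CL, 44.6 ± 8.09 (n = 4) in Ctrl IL, 34.6 ± 6.45 (n = 3) in cKO CL and 43.8 ± 2.16 (n = 3) in cKO IL. In cKO, IL ranged from 41.3 to 45.5 CPM and CL from 28.3 to 41.2 CPM, without overlap. The fold change in cKO was 0.43 ± 0.15 (adjusted p = 0.0783), and 0.55 ± 0.15 with the mouse as a block (adjusted p = 0.0462). In Ctrl it was -0.22 ± 0.32 (adjusted p = 0.789).

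Dnajb1, the HSP40 protein that delivers clients to HSP70, was 715, 912, 366 and 362 CPM in Ctrl CL and 293, 308, 192 and 180 CPM in Ctrl IL of mice 3541, 3545, 3546 and 3551. In cKO CL it was 433, 265 and 329 CPM in mice 788, 791 and 3592, and in cKO IL 196, 199 and 159 CPM in mice 784, 791 and 3592. Within each genotype every IL library lay below every CL library in CPM. IL against CL was -1.12 ± 0.41 in Ctrl (adjusted p = 0.146), which passed with the mouse as a block (SE 0.11, adjusted p = 0.000996). In cKO Dnajb1 fell by 0.78 ± 0.21 (adjusted p = 0.0314), and the blocked value of -0.62 ± 0.19 did not pass (adjusted p = 0.0690). Between genotypes it gave -0.70 ± 0.39 in CL (adjusted p = 0.606) and -0.35 ± 0.29 in IL (adjusted p = 0.848).

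Hsp90aa1, the inducible HSP90, was 375, 594, 217 and 321 CPM in Ctrl CL and 204, 201, 130 and 164 CPM in Ctrl IL of mice 3541, 3545, 3546 and 3551. In the cKO libraries it stayed between 142 and 215 CPM with the hemispheres overlapping. IL against CL in Ctrl was -0.96 ± 0.36 (adjusted p = 0.150, and 0.00372 with the mouse as a block), and in cKO -0.03 ± 0.17 (adjusted p = 0.929). Between genotypes in CL it was -1.0 ± 0.34 (adjusted p = 0.317). A copy listed as Gm12346, 99.5% identical over 2255 bases, held between 65.3 and 294 CPM, and with 3 copies added the means were 601 ± 260 CPM in Ctrl CL, 281 ± 51.3 in Ctrl IL, 284 ± 60.8 in cKO CL and 269 ± 20.04 in cKO IL.

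Hsp90ab1, the constitutive HSP90, varied least. It averaged 898 ± 192 CPM (SD, n = 4) in Ctrl CL, 665 ± 36.2 (n = 4) in Ctrl IL, 644 ± 106 (n = 3) in cKO CL and 713 ± 81.0 (n = 3) in cKO IL. It was lower in IL than in CL in 4 of 4 Ctrl mice and higher in 2 of 2 cKO mice. Neither difference passed the test, at -0.33 ± 0.24 in Ctrl (adjusted p = 0.497) and 0.24 ± 0.18 in cKO (adjusted p = 0.384).

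Hspb1, the stress-inducible small heat shock protein that guards actin filaments, was 65.0, 67.9, 29.7 and 26.5 CPM in Ctrl CL and 23.8, 22.8, 5.29 and 14.7 CPM in Ctrl IL of mice 3541, 3545, 3546 and 3551. In cKO CL it was 27.1, 21.2 and 20.7 CPM in mice 788, 791 and 3592, and in cKO IL 18.3, 16.4 and 9.13 CPM in mice 784, 791 and 3592. In CPM, all IL libraries lay below all CL libraries of the same genotype. IL against CL in Ctrl was -1.44 ± 0.55 (adjusted p = 0.163), and passed with the mouse as a block (SE 0.23, adjusted p = 0.00577). The lowest value came from the shallow library of mouse 3546, and without it the log2 fold change was -0.94 ± 0.41 (adjusted p = 0.191). In cKO it was -0.58 ± 0.27 (adjusted p = 0.163), and between genotypes -0.90 ± 0.39 in CL (adjusted p = 0.468) and -0.04 ± 0.54 in IL (adjusted p = 0.995). Without Ctrl IL of mouse 3546 the value in IL was -0.53 ± 0.30 (adjusted p = 0.412), and over all fits without 1 library it ranged from -0.53 to 0.29. Its copy Hsp25-ps1, a processed pseudogene 99.8% identical over 441 bases, had between 2.26 and 26.1 CPM.

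Hspe1, the co-chaperonin that caps the mitochondrial HSP60 barrel, went the other way in cKO mice. It was 35.9, 37.7, 20.4 and 36.8 CPM in Ctrl CL and 31.5, 32.6, 8.18 and 30.001 CPM in Ctrl IL of mice 3541, 3545, 3546 and 3551. In cKO CL it was 23.4, 26.1 and 19.5 CPM in mice 788, 791 and 3592, and in cKO IL 31.8, 26.9 and 32.0 CPM in mice 784, 791 and 3592. Apart from mouse 3546, the Ctrl libraries of both hemispheres lay close together, and every cKO IL library lay above every cKO CL library. Hspe1 rose in cKO IL by 0.47 ± 0.13 (adjusted p = 0.0385), a call that was lost with the mouse as a block (0.46 ± 0.18, adjusted p = 0.121) and in 5 of 6 fits without 1 library. In Ctrl the difference was -0.40 ± 0.47 (adjusted p = 0.715) and, without Ctrl IL of mouse 3546, 0.11 ± 0.26 (adjusted p = 0.835).

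Hspe1 lies at chr1:55088132-55091307 on the plus strand, back to back with Hspd1, the gene of the HSP60 barrel itself, and their listed transcripts share 112 bases. Hspd1 also rose in cKO IL, from 57.5 to 81.6 CPM on average (0.58 ± 0.10, adjusted p = 0.00770), and was 72.3 and 79.9 CPM in Ctrl CL and Ctrl IL (0.22 ± 0.15, adjusted p = 0.483). The Hspe1 promoter (chr1:55087898-55088147, plus strand, GRCm38.p6) is shown because it was the only one of the 7 heat shock genes found in the RefSeq table to hold a run of at least 3 alternating units (the 2-unit form followed by another unit) in the 250 bases before the start, and its whole run, of 4 alternating units, is in capitals:
Hspe1: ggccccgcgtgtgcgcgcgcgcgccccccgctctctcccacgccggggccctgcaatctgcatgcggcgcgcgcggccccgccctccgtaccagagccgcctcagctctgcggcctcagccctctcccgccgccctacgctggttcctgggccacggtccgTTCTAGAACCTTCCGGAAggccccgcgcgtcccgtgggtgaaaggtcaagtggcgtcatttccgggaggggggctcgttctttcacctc
The 3-unit letters stood in 0.466% of all 32851 stretches. Of the 7 genes, 6 held at least the 2-unit form and Dnajb1 held none, and matches lay 117 and 97 bases before the start of Hspb1 and 33 and 54 bases before the 2 listed starts of Hsph1. Letters outside these windows, and elements that depart from them, were not searched.

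Levels were compared between genes as CPM per kb of exon. In Ctrl CL the order began with Hspa8 (659 ± 200 CPM per kb, SD), Hspa1b (657 ± 330) and Hspa1a (639 ± 280), which did not differ beyond their spread, followed by Hsp90ab1 (299 ± 64.0). In cKO IL it began with Hspa8 (315 ± 31.9) and Hsp90ab1 (238 ± 27.02), and Hspa1a (75.3 ± 11.7), Dnajb1 (57.7 ± 6.93), Hsp90aa1 (41.8 ± 2.42) and Hspa1b (38.8 ± 12.98) followed. Hspa1b thus ranked 2 of 10 in Ctrl CL and 6 of 10 in cKO IL. Hspb3 was last in both Ctrl groups, at 0.187 ± 0.0640 and 0.0556 ± 0.0715 CPM per kb. In cKO CL it ranked 7 of 10 at 29.8 ± 4.73, above Hspb1 (22.3 ± 3.48) with ranges that overlapped.

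The difference between genotypes in the response to injury was tested as an interaction over all 14 libraries. limma called 0 of 18476 genes (0%), with 481 at an unadjusted p under 0.05, and 3 genes (0.0162%) once each mouse was a random block. All 9 of the other heat shock genes had, with all libraries in the fit, an interaction above 0, meaning a less negative or more positive IL against CL difference in cKO, with a median of 0.58 against 0.04 over all genes. Without Ctrl IL of mouse 3546 the median was 0.35. The values ranged from 0.13 ± 0.71 for Hspa1b to 0.94 ± 0.47 for Hsp90aa1, each with an adjusted p of 0.9999. Calls that passed in cKO and not in Ctrl were therefore not shown to differ between the genotypes.

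Beyond the 10 genes, 69 other chaperones, co-chaperones and heat shock factors of the table were counted from a list. Between IL and CL of Ctrl mice none of 67 tested was called, and in the blocked fit 7 were higher and 7 lower, beside 9.8% and 10.7% of all genes. In cKO mice 22 of 66 rose and 3 fell, beside 12.8% and 9.52% of all genes, and with the mouse as a block 13 rose and 0 fell, beside 8.69% and 4.81%. The number that rose was 3 without cKO IL of mouse 784, 3 without cKO IL of mouse 791 and 3 in the single fit of all 14 libraries, where 6.63%, 6.28% and 4.08% of all genes were called higher, and 8 with no filter on low values, where 4.22% were. By group, 6 of 8 subunits of the CCT chaperonin, which folds actin and tubulin, rose, as did 4 of 6 mitochondrial and 4 of 8 endoplasmic reticulum chaperones, of which 1, Dnajb9, fell. Of 12 HSP40 genes 0 rose and 1, Dnajb5, fell. Differences between these groups were not tested, and Dnajb9 and Dnajb5 are named after their values were seen. No list member was called between genotypes in either hemisphere or in the interaction. In CL, 59 of 67 had log2 fold changes below 0, with a median of -0.23 against -0.05 over all genes tested, and in IL 33 of 66.

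Hsf1, the gene of the factor that induces the stress-inducible heat shock genes named above, averaged 57.8 CPM in Ctrl CL, 46.6 in Ctrl IL, 64.9 in cKO CL and 44.4 in cKO IL. It fell in IL of cKO mice by 0.46 ± 0.12 (adjusted p = 0.0329, and 0.0824 with the mouse as a block) and gave -0.22 ± 0.14 in Ctrl (adjusted p = 0.418). Between genotypes its values were 0.17 ± 0.15 in CL and -0.05 ± 0.13 in IL, neither of which passed. Its RNA level is not a measure of its activity.

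**Figure D5:**
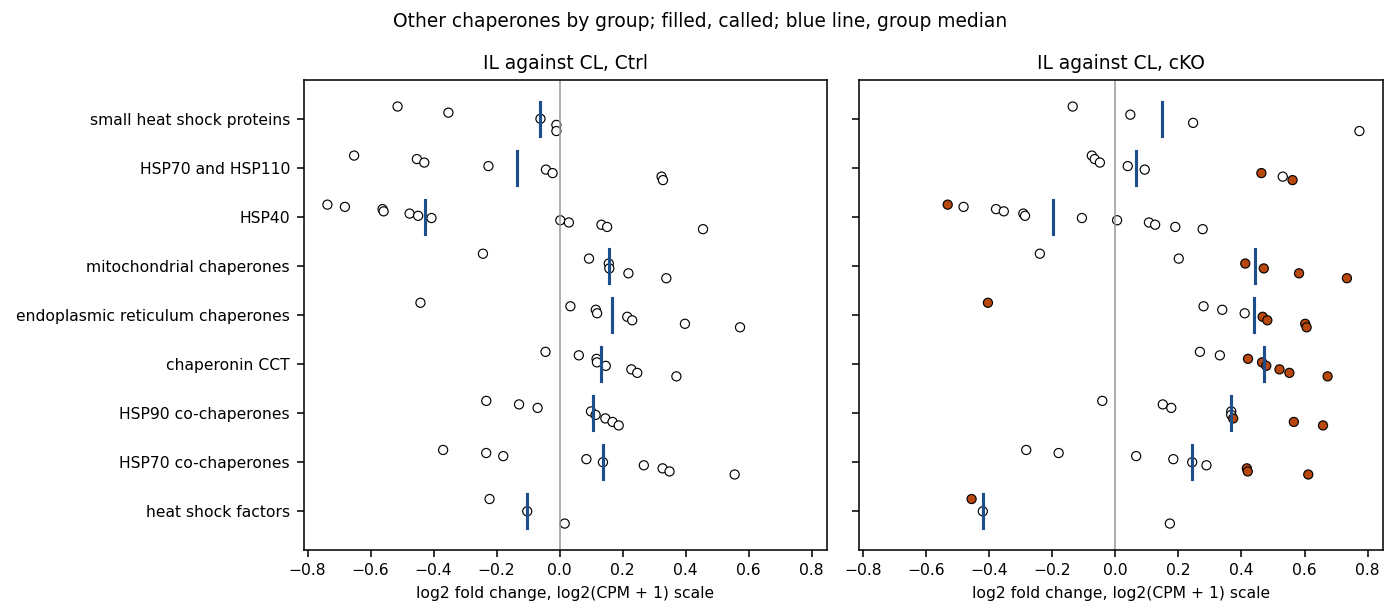
Log2 fold change of IL against CL (x axis, log2(CPM + 1) scale) for the other chaperones, 1 point per gene, by functional group (rows) in Ctrl (left) and cKO (right), with filled points for genes called by limma and a blue line at the group median. No point is filled in Ctrl, and in cKO 22 points are filled right of 0 and 3 left of it.

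Other values moved beside these results. The 14 immediate early genes listed as signs of cell handling summed to between 28282 and 42382 CPM in Ctrl CL, 23193 and 28213 in Ctrl IL, 38898 and 53503 in cKO CL and 26344 and 30627 in cKO IL. Every IL library had a lower sum than every CL library of the same genotype, and the genotypes overlapped in CL and in IL. Between hemispheres, 11 of the 14 had log2 fold changes below 0 in Ctrl and 12 in cKO. In Ctrl 2 were called lower and 1 higher, beside 2.96% and 3.6% of all genes. In cKO 5 were called lower and 1 higher, beside 9.52% and 12.8%. None was called between genotypes, where 0.873% of all genes were in CL and 0.662% in IL. In CL, 13 of the 14 had log2 fold changes above 0 in cKO against Ctrl, with a median of 0.36 against -0.05 over all genes, and in IL 11 of the 14, with a median of 0.14.

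The 7 neutrophil markers summed to between 528 and 7465 CPM in Ctrl CL, 141 and 912 in Ctrl IL, 567 and 1577 in cKO CL and 215 and 336 in cKO IL. Between hemispheres all 7 had log2 fold changes below 0 in each genotype, with a median of -2.77 in Ctrl, where 0 were called, and of -1.44 in cKO, where 6 were called lower. Of all genes, 2.96% were called lower in Ctrl and 9.52% in cKO. Between genotypes in CL all 7 were below 0, with a median of -1.25, and 0 were called, beside 0.873% of all genes. The 6 smooth muscle and pericyte markers summed to between 45.7 and 131 CPM in Ctrl CL and between 32.4 and 43.4 CPM in Ctrl IL, to between 60.05 and 84.9 in cKO CL and between 30.1 and 45.9 in cKO IL. In IL against CL all 6 were below 0 in each genotype, with a median of -0.74 in Ctrl, where 0 were called, and of -0.73 in cKO, where Acta2 and Myh11 were called lower. The shares of all genes called lower were the same 2.96% and 9.52%. The 6 monocyte markers summed to between 228 and 748 CPM in Ctrl CL, 369 and 594 in Ctrl IL, 131 and 338 in cKO CL and 276 and 465 in cKO IL. In IL against CL, 2 were called higher in Ctrl (Vcan and Ccr2) and 2 in cKO (Plac8 and Vcan), with medians of 0.37 and 1.08. Of all genes, 3.6% were called higher in Ctrl and 12.8% in cKO. Between genotypes in CL all 6 had log2 fold changes below 0, with a median of -0.76, and 0 were called, beside 0.873% of all genes. The 5 oligodendrocyte markers summed to between 126 and 193 CPM in Ctrl CL, 92.0 and 147 in Ctrl IL, 80.8 and 113 in cKO CL and 94.9 and 139 in cKO IL, so that the genotypes did not overlap in CL. In IL against CL their median was -0.49 in Ctrl, where 0 were called, beside 6.56% of all genes. In cKO it was 0.44, and Mobp and Mbp were called higher, beside 12.8% of all genes. Between genotypes in CL all 5 had log2 fold changes below 0, with a median of -0.98, and Mobp was called lower, beside 0.41% of all genes. The 5 endothelial markers had IL against CL medians of -0.39 in Ctrl, where 0 were called, and 0.58 in cKO, where Kdr was called higher. Those of the 5 astrocyte markers were 0.05 and 0.19, and Gfap was called higher in each genotype. Genes called higher were again 3.6% of all in Ctrl and 12.8% in cKO. Between genotypes in CL the 2 medians were -0.35 and -0.14, and 0 were called. Neuron markers summed to between 0.882 and 2.79 CPM over all libraries. The part of these cells, of cell handling and of depth in the heat shock results was not tested.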

How the data were processed

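Bulk RNA was measured in 14 libraries, grouped by genotype and hemisphere from the labels. The authors mapped reads with STAR to mm10 and summarised them per gene in Partek Flow 8.0, per the labels and methods. The deposited table is named as raw counts but holds CPM, since every library sums to 1e+06, and replicates were not pooled. Between 79.0% and 83.5% of values under 100 reads were whole multiples of the worth of 1 read (tolerance 0.03), so a count test was not used. The authors' 2 comparison tables hold p-values, fold changes and group means, and were used only to pair identifiers with symbols (13308 identifiers).

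CPM were rescaled by trimmed-mean factors computed for each fit (0.845 to 1.16 over all fits) and tested as log2(CPM + 1) with limma 3.58.1 in R 4.3.3, with Benjamini-Hochberg adjustment over all genes tested. A gene was kept where the value of 10 reads at the median depth was reached in a number of libraries no lower than the size of the smaller group. Fold changes on this scale understate changes of low genes. Only the groups compared entered a fit, and the interaction used all 14. The fits were tested on simulated data. Intervals and floors cover counting error only. Replicates were separate mice.

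Mouse numbers in the labels paired the hemispheres of 6 mice. Deviations from the group means correlated in 6 of 6 such pairs (r 0.182 to 0.608, median 0.413) against a median of -0.215 in 19 other pairs, so values with the mouse as a block are given where they change a call.

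The members and lists were chosen with earlier results of these data known. Named were all 10 members, Hsf1, tested genes within 1 Mb of Hspb3 and the 5 genes most like Hspb3. Other genes were named after their values were seen, and the chaperones named are not those of the largest change. Near copies were found with blastn 2.17.0 against GENCODE M21 transcripts at 97% identity or more, and promoters came from RefSeq (GRCm38.p6; 7 of 10 genes matched). Alternatives were pseudocounts of 0.5 and 0.1, no added scaling, median-ratio scaling, no filter, all 14 libraries in a single fit, the mouse as a block, and leaving out each library. Some values that were computed are not reported here.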

Additional observations from a re-analysis of the deposited data

Results flagged for a closer look

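Hspe1 in mouse 3546 lay far from the other libraries of both Ctrl groups. It was 20.4 CPM in Ctrl CL, where the gap to the next library took 0.897 of the range of the group, and 8.18 CPM in Ctrl IL, where the gap took 0.893. These 2 were the only ones past the 95% critical value for groups of this size among 20 groups of 4 libraries, and chance passes about 1 in 20. The Ctrl IL library of this mouse was also the shallowest and had the lowest median of short coding genes, 0.211 of the other Ctrl IL libraries, and the Ctrl CL library had 0.735. Their part in the Hspe1 values was not tested.

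Hsp90ab1 and Hspe1 were lower in IL than in CL in 4 of 4 Ctrl mice and higher in 2 of 2 cKO mice. The difference of the differences was 0.58 for Hsp90ab1 and 0.87 for Hspe1 on the log2 scale, and neither passed the interaction test of limma (adjusted p = 0.9999 for each). Without Ctrl IL of mouse 3546 the values were 0.48 and 0.34, and the Ctrl difference of Hspe1 turned from -0.40 to 0.11.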

How the results depend on the processing

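Of the values of single genes under settings other than leaving out a library, 305 kept their direction and side of the threshold, 25 newly passed, 13 no longer passed, 5 moved beyond the spread of replicates and 4 turned direction. Leaving out 1 library kept 366, passed 7, lost 17, moved 1 and turned 21. With no filter on low values, 535 genes were called between the Ctrl hemispheres (1074 with it), 2436 between the cKO hemispheres (3746), 67 between genotypes in IL (112) and 77 in CL (145), and 1 of the 10 heat shock genes in cKO. With the mouse as a replicate block, 3357 genes and 6 heat shock genes were called between the Ctrl hemispheres and 2261 genes in cKO, and Hsp90aa1 in cKO turned to 0.094. In a single fit of all 14 libraries, 2010 genes and 2 heat shock genes were called in Ctrl, 1391 and 1 in cKO, 265 and 1 between genotypes in CL, and Hsp90aa1 in cKO was 0.0018. With the mouse as a random block in that fit, 4256 genes and 6 heat shock genes were called in Ctrl, 3093 and 3 in cKO, 190 and 1 between genotypes in IL, 290 and 2 in CL, and 3 genes in the interaction, and Hsp90aa1 in cKO was 0.038. Without further scaling, 1439 genes and 2 heat shock genes were called in Ctrl and 100 and 1 between genotypes in IL, Hsph1 there was -0.0099, and cKO calls split into 1647 higher and 2146 lower in place of 2150 and 1596. Median-ratio scaling called 1217 genes and 1 heat shock gene in Ctrl, and pseudocounts of 0.5 and 0.1 called 155 and 156 genes and 1 heat shock gene each between genotypes in CL. Counts of heat shock genes between genotypes and in the interaction leave out Hspb3. The block changed no call of the 10 genes other than those named here and in the text. The cause of these changes was not tested.

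Leaving out each library in turn, genes called ranged from 487 to 1413 in Ctrl (lowest without Ctrl IL of mouse 3541), 1882 to 3538 in cKO (without cKO IL of mouse 784), 46 to 284 between genotypes in IL (lowest without cKO IL of mouse 784, highest without Ctrl IL of mouse 3546), 70 to 165 in CL (without cKO CL of mouse 791) and 0 to 1 in the interaction. Heat shock genes called ranged from 0 to 2, 1 to 5, 0 to 2, 0 to 2 and 0 to 0 in the same order, with Hspb3 left out between genotypes and in the interaction. Log2 fold changes that turned direction were Hsph1 (-0.46 to 0.0036) and Hspe1 (-0.64 to 0.11) in Ctrl, Hspa8 (-0.18 to 0.028) and Hsp90aa1 (-0.19 to 0.14) in cKO, Hspb1 (-0.53 to 0.29), Hsph1 (-0.13 to 0.13), Hsp90aa1 (-0.26 to 0.072) and Hspe1 (-0.11 to 0.62) between genotypes in IL, and the interaction of Hspa1b (-0.39 to 0.42). Depth limits Hspb3 in Ctrl, where libraries hold 0 to 8 of its reads.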
